A study of Mus musculus with 6 samples.

Results

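Cnih2, Tg, Slc17a6, Dlg2, Sdcbp2, Acot9 and Ptms are 7 of the 15601 genes in a single-cell count table of tumour CD8 T cells. They were chosen by their measured levels, because they ranked among the top genes of a deposited cell cluster, number 0, whose cells carry markers of T cell exhaustion. The values that chose them are their levels by cluster and their likeness to Havcr2, so both are described here without a test. Of these genes, 4 are best known from other tissues: Cnih2, Slc17a6 and Dlg2 from neurons and Tg from the thyroid. The other 3, Sdcbp2, Acot9 and Ptms, have no such tie to brain or thyroid.

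The cells were CD8 T cells from tumours of wild-type C57BL/6 mice, female or male, aged 6 to 8 weeks per the labels' age field. Each mouse had received MB49 cells, a mouse urothelial carcinoma line, under the skin, and tumours were taken on day 10. Live CD8 T cells were sorted by CD3 and CD8, leaving out CD4-positive cells, and sequenced with a droplet-based 3′ method that counts unique molecular identifiers (UMIs). Both sexes carried the same tumour line and no treatment is named, so sex of the host is the contrast of the study. The labels list 3 biological replicates per sex and do not say whether animals were pooled.

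The table held 26698 cells, 9955 from females and 16743 from males, in 6 libraries, of which 3 were female (numbers 2, 5 and 6) and 3 male (numbers 1, 3 and 4). Library totals ran from 25562319 to 66105318 UMIs. The authors had placed every cell in 1 of 11 clusters, numbered 0 to 10. Clusters 6 and 10 stood apart in RNA quality, with medians of 1742 and 1461 UMIs per cell against 9163 in cluster 0, and with median mitochondrial shares of 30% and 20.3% against 3.95%. Female library 5 stood away from the other five libraries for several members in clusters with low levels, so results that rest on it are given with and without it. In all, 84 cell barcodes occurred under more than 1 library number, and 169 cells carried them.

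T cell exhaustion is a state that CD8 T cells enter when antigen and receptor signalling persist, as in tumours and chronic infection. Exhausted cells hold inhibitory receptors such as PD-1, LAG-3 and TIM-3, the product of Havcr2, and make less cytokine than effector cells. Cnih2 encodes a cornichon protein that helps glutamate receptors of the AMPA type leave the endoplasmic reticulum and stays with them at synapses. Slc17a6 encodes a vesicular glutamate transporter that fills synaptic vesicles. Dlg2 encodes a scaffold of the membrane-associated guanylate kinase family that anchors receptors below the synapse. Tg encodes thyroglobulin, the protein from which thyroid hormones are cut. Sdcbp2 encodes a syntenin, an adaptor with PDZ domains that binds membrane lipids. Acot9 encodes a mitochondrial acyl-CoA thioesterase. Ptms encodes parathymosin, a small acidic protein related to prothymosin alpha.

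All 7 genes are protein coding in GENCODE M21, on the build GRCm38 (mm10), which is the build named in the submitters' processing notes. Cnih2 lies on chromosome 19 from 5092868 to 5098521 on the minus strand. Slc17a6 lies on chromosome 7 from 51622006 to 51671119, and Dlg2 lies on the same chromosome from 90476672 to 92449247, both on the plus strand. Tg lies on chromosome 15 from 66670753 to 66850721, Sdcbp2 on chromosome 2 from 151572622 to 151590005 and Acot9 on chromosome X from 155262443 to 155297654, all on the plus strand. Ptms lies on chromosome 6 from 124913681 to 124920103 on the minus strand.

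RefSeq promoters (GRCm38.p6) were matched by symbol for 6 of the 7 genes, with 9 start sites among them. Tg had no match. The 250 bases before the start are printed below, 5′ to 3′ on the gene's strand, for the 4 genes with a single start site, because members that peak in the same cluster can be read side by side for short motifs they do or do not share. Capitals mark a match to any of the 7 motifs searched on both strands: GGAAA (NFAT), TGANTCA (AP-1), AAAGGTCA (the NBRE of NR4A factors), TGTGGT (RUNX), CTTTGA (TCF/LEF), CAGCTG (E-box) and CCGGAAGT (ETS). The windows are chr19:5098522-5098771 on the minus strand for Cnih2, chr2:151572373-151572622 on the plus strand for Sdcbp2, chrX:155262193-155262442 on the plus strand for Acot9 and chr6:124917947-124918196 on the minus strand for Ptms.
Cnih2: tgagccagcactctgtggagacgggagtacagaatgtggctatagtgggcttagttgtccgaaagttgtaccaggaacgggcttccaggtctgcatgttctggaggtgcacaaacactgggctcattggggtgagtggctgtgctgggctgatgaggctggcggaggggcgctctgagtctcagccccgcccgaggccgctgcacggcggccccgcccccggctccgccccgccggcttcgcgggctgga
Sdcbp2: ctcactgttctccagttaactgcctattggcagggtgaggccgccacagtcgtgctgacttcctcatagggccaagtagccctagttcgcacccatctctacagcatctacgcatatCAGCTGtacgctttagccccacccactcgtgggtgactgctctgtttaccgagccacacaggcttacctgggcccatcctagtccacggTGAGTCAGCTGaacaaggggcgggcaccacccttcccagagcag
Acot9: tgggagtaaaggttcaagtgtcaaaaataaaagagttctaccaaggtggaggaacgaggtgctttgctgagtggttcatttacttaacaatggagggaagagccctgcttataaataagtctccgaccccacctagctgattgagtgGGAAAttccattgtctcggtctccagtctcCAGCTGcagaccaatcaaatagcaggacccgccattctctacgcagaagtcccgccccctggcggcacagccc
Ptms: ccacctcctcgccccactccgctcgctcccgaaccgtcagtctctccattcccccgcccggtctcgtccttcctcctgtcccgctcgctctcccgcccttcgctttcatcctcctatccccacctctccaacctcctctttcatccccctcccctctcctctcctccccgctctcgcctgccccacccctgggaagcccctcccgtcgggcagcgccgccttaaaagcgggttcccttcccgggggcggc

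The Sdcbp2 window held an AP-1 match that begins 44 bases before the start and E-box matches that begin 133 and 39 bases before it. The AP-1 match and the nearer E-box share bases, which is the run TGAGTCAGCTG in the printed sequence. The Acot9 window held an NFAT match at 103 bases and an E-box match at 73 bases before the start. The Cnih2 and Ptms windows held none of the 7 motifs and were rich in G and C, at 65.6% and 69.2% against a median of 52.4% over all promoters. Over the 6 genes with a promoter, 3 had an NFAT match, 2 an E-box match, 1 an AP-1 match and 1 a RUNX match. Among all 32851 promoters of the same length, 55.6% held the NFAT letters, 13% the E-box, 6.75% the AP-1 and 14% the RUNX letters. These shares are per promoter, whereas a gene counted if any of its start sites matched. Slc17a6 had 2 start sites and Dlg2 had 3, so counts and shares have unlike units. The matches are descriptions of letters in these windows and no binding was measured.

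Levels are given as CPM, the UMIs of a gene per 1000000 UMIs of all genes, summed over the cells of a cluster in a library. Of the 7 members, 6 had their highest mean level in cluster 0, and Slc17a6 had it in cluster 6. Among all 8622 genes with a mean of at least 5 CPM over the clusters, 355 (4.12%) were highest in cluster 0. The rule used this contrast, so nothing is read from the count. Ranked by the ratio of the cluster 0 mean to the mean of the other clusters, the members stood 1st (Cnih2, ratio 5.11), 2nd (Tg, 3.34), 3rd (Sdcbp2, 3.02), 7th (Dlg2, 2.86), 10th (Slc17a6, 2.79), 12th (Acot9, 2.52) and 17th (Ptms, 2.35). The genes just below the lowest member were Rgs16 at rank 18, Cx3cr1 at rank 19 and Sat1 at rank 20, with ratios of 2.34, 2.34 and 2.34. Havcr2 itself stood at rank 340 with a ratio of 1.46.

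**Figure D1:**
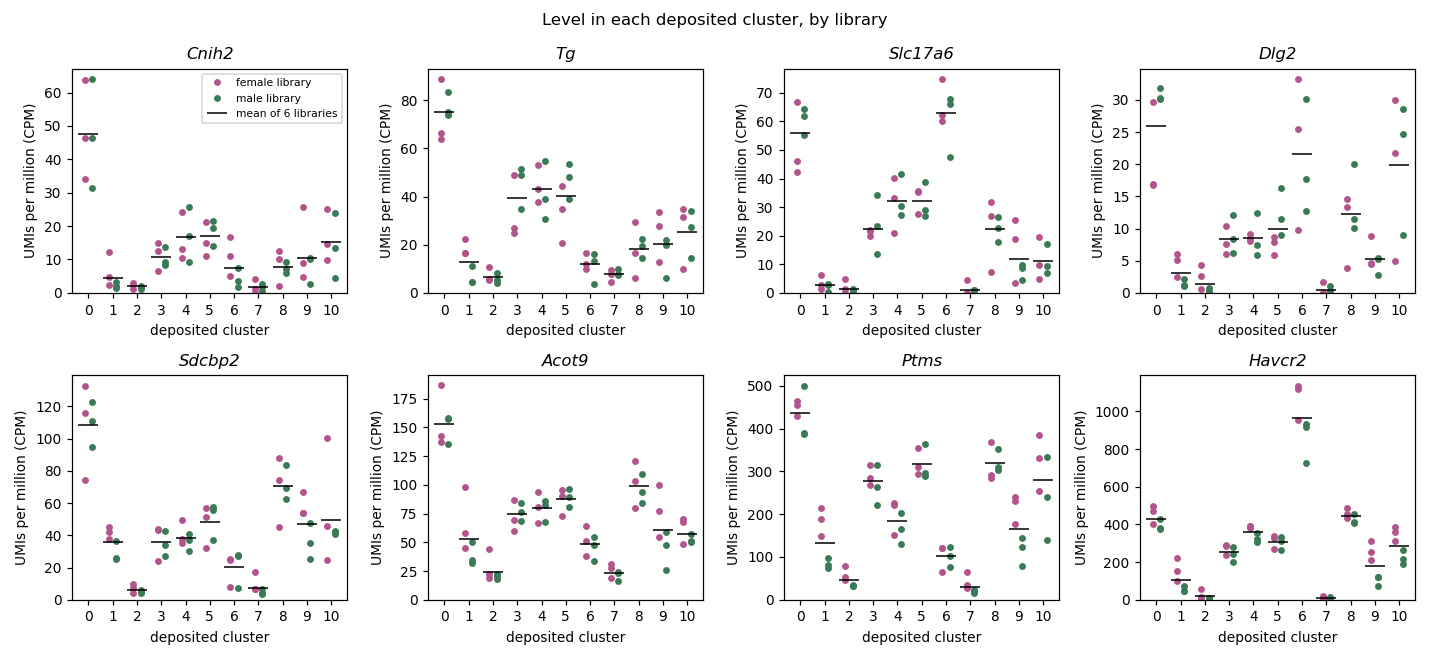
Level of each member and of Havcr2 in CPM (y axis, from 0) in each deposited cluster (x axis); points are the 6 libraries by sex of the host and bars are their means. All members but Slc17a6 have their highest mean in cluster 0, Slc17a6 and Havcr2 have it in cluster 6, and levels in clusters 2 and 7 are the lowest.

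Cnih2, the AMPA receptor auxiliary gene, stood at 31.5, 64.0 and 46.5 CPM in cluster 0 of male libraries 1, 3 and 4, and at 46.5, 63.7 and 34.1 CPM in female libraries 2, 5 and 6. The sexes overlapped, and the highest library held about the same level in each sex. The mean of 47.7 ± 14 CPM (SD, n = 6 libraries) was followed by 17.0 ± 4.28 CPM in cluster 5 and 16.7 ± 7.05 CPM in cluster 4. No library of cluster 5 reached the lowest library of cluster 0. The lowest mean was 1.71 ± 1.54 CPM in cluster 7, where 21 UMIs were counted in all.

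Slc17a6, the glutamate transporter, stood at 55.1, 64.3 and 62.0 CPM in cluster 0 of male libraries 1, 3 and 4, and at 46.0, 66.7 and 42.2 CPM in female libraries 2, 5 and 6. Its mean was 56.0 ± 10.1 CPM in cluster 0 and 63.1 ± 9.15 CPM in cluster 6 (SD, n = 6). Cluster 6 was the higher in 5 of 6 libraries, but the ranges overlapped, and cluster 6 is a cluster of few UMIs and high mitochondrial share in which Slc17a6 rested on 289 UMIs. Both lay above cluster 4 at 32.3 ± 7.84 CPM and cluster 5 at 32.2 ± 5.01 CPM. In clusters 1, 2 and 7 the means were 2.72, 1.43 and 1.12 CPM, from 68, 24 and 13 UMIs.

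Dlg2, the synaptic scaffold gene, rested on 1381 UMIs in cluster 0. It stood at 30.4, 31.9 and 30.1 CPM in male libraries 1, 3 and 4, and at 16.9, 29.7 and 16.8 CPM in female libraries 2, 5 and 6. Every male library was above every female library, with female library 5 only just below. The mean of 26.0 ± 7.10 CPM was close to 21.5 ± 9.53 CPM in cluster 6 and 19.8 ± 10.5 CPM in cluster 10, with overlapping ranges, and cluster 0 was above cluster 6 in 3 of 6 libraries. Clusters 6 and 10 rested on 99 and 39 UMIs. Outside those low-quality clusters the next mean was 12.2 ± 5.35 CPM in cluster 8, and cluster 7 held 7 UMIs in all.

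Tg, the thyroglobulin gene, stood at 75.0, 73.8 and 83.4 CPM in cluster 0 of male libraries 1, 3 and 4, and at 88.9, 63.8 and 66.5 CPM in female libraries 2, 5 and 6. The sexes overlapped, and the mean was 75.2 ± 9.61 CPM (SD, n = 6). Clusters 4, 5 and 3 followed at 43.0 ± 9.33, 40.0 ± 11.6 and 39.3 ± 12 CPM. These means differed by less than the spread between libraries, and no library of cluster 4 reached the lowest library of cluster 0. Cluster 8, whose Havcr2 level overlapped that of cluster 0, held 18.0 ± 7.78 CPM of Tg.

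Sdcbp2, the syntenin gene, stood at 95, 123 and 111 CPM in cluster 0 of male libraries 1, 3 and 4, and at 116, 133 and 74.6 CPM in female libraries 2, 5 and 6. Female libraries held both the highest and the lowest value. The mean was 109 ± 20.9 CPM in cluster 0 and 70.5 ± 15.4 CPM in cluster 8. The ranges of these clusters overlapped, although cluster 0 was above cluster 8 in 6 of 6 libraries. The lowest mean was 6.03 ± 2.30 CPM in cluster 2.

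Acot9, the acyl-CoA thioesterase gene, stood at 136, 157 and 158 CPM in cluster 0 of male libraries 1, 3 and 4, and at 143, 187 and 137 CPM in female libraries 2, 5 and 6. The sexes overlapped and female library 5 was the highest. The mean of 153 ± 19.1 CPM lay above cluster 8 at 98.7 ± 15.5 CPM, with no overlap of libraries, and cluster 5 followed at 87.6 ± 9.23 CPM.

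Ptms, the parathymosin gene, stood at 387, 500.3 and 391 CPM in cluster 0 of male libraries 1, 3 and 4, and at 464, 454 and 429 CPM in female libraries 2, 5 and 6. The male libraries held both the lowest and the highest values. The mean of 438 ± 44.1 CPM lay above clusters 8 and 5, at 319 ± 34.0 and 318 ± 32.7 CPM, which differed by less than the spread between libraries. The lowest mean was 30.8 ± 17.5 CPM in cluster 7.

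The share of cells with at least 1 UMI of a gene depends on how deeply a cell was read, so each cell was also thinned at random to 2000 UMIs, leaving out shallower cells. This kept 4831 of the 4869 cells of cluster 0, but only 38.6% of cluster 6 and 25.9% of cluster 10. In thinned cells of cluster 0, 8.37% ± 2.44 held a UMI of Cnih2, 8.52% ± 1.65 of Slc17a6, 5.07% ± 1.88 of Dlg2 and 13.8% ± 0.999 of Tg (SD, n = 6). The shares for Sdcbp2, Acot9 and Ptms were 18.0% ± 3.36, 26.5% ± 2.87 and 56.2% ± 3.82. Without thinning the same 7 shares, in that order of genes, were 28.4%, 22.5%, 19.9%, 38.6%, 51.8%, 71.2% and 90.8%. In cluster 7, where naive and central memory markers were highest and the median cell held 7465 UMIs, thinned shares were 0.558% for Cnih2, 0.103% for Slc17a6, 0.0235% for Dlg2, 1.45% for Tg, 1.24% for Sdcbp2, 3.83% for Acot9 and 4.59% for Ptms. RNA free in the droplets gives UMIs to cells that do not express a gene, and its part in these shares was not tested. The order of clusters 0 and 7 is fixed by how the genes were chosen. In cluster 6 the thinned share for Slc17a6 was 8.72%. Without cells over 10% mitochondrial, 29 deep cells of cluster 6 were left and 0 held a Slc17a6 UMI, which allows a share of up to 10.3%, against 8.62% in cluster 0.

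**Figure D2:**
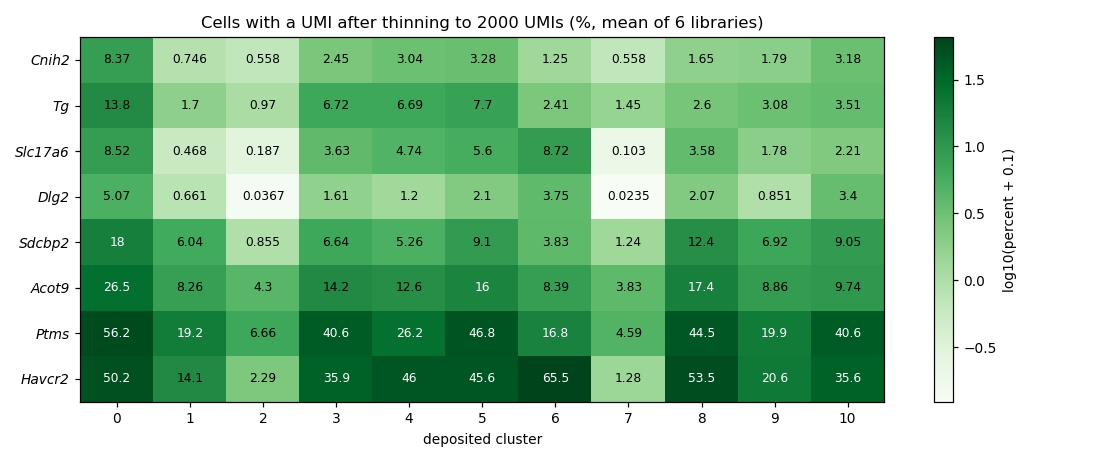
Percentage of cells with a UMI of each member and of Havcr2 (rows) in each deposited cluster (columns), after each cell was thinned to 2000 UMIs; numbers and colour (log10 scale) are means of 6 libraries. Every member is detected most often in cluster 0, apart from Slc17a6, which is found in 8.52% of cluster 0 and 8.72% of the few deep cells of cluster 6.

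Detection of any member was spread over many cells of cluster 0. The pooled counts lean on Ptms and Acot9, found in 56.2% and 26.5% of its thinned cells. Cnih2, Slc17a6, Dlg2 and Tg were each found in 5.07% to 13.8% of them. A thinned cell of cluster 0 held UMIs of 1.37 ± 0.106 members on average (SD, n = 6), against 0.906 ± 0.0916 in cluster 5, 0.842 ± 0.112 in cluster 8 and 0.118 ± 0.0348 in cluster 7. In cluster 0, 19.9% of thinned cells held none of the 7 and 12.2% held 3 or more. No thinned cell of cluster 0 held all 7. For the 21 pairs of members, the number of cluster 0 cells with both was divided by the number that independent detection within each library would give. The ratio ran from 0.938 to 1.25 with a median of 1.06, and 16 of 21 pairs were above 1. It was above 1 in all 6 libraries for 2 pairs. In cluster 8, 11 of 21 pairs were above 1, with a median of 1.01, and 0 pairs were so in all 6 libraries. Pairs of other genes were not counted, so nothing is read from these ratios.

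Havcr2 was used to choose the genes, so its relation to them is given as a description. Over the 66 sums of 11 clusters and 6 libraries, Pearson's r of log2(CPM + 1) with Havcr2 was 0.90 for Slc17a6, 0.87 for Dlg2, 0.80 for Ptms, 0.79 for Acot9, 0.74 for Sdcbp2, 0.67 for Cnih2 and 0.58 for Tg. Sums of the same library share its preparation and depth, and sums of the same cluster share its cell state. Without clusters 6 and 10, which differ in RNA quality, the values were 0.90, 0.89, 0.96, 0.94, 0.93, 0.78 and 0.78 in the same order. Cell by cell the relation was weak. Within cluster 0 and within each library, the mean r over thinned cells was 0.107 for Ptms, 0.0998 for Sdcbp2, 0.0481 for Cnih2, 0.0402 for Dlg2, 0.0229 for Acot9, -0.0212 for Tg and -0.0313 for Slc17a6, against a median of 0.00117 over all genes and a highest value of 0.254 for Nkg7. In counts this sparse such values are no finding.

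The same was seen in shares. Among thinned cells of cluster 0 with no Havcr2 UMI, 52.9% ± 4.24 held a UMI of Ptms and 14.5% ± 2.83 one of Sdcbp2. With 3 or more Havcr2 UMIs, the shares were 67.9% ± 6.59 and 24.2% ± 7.62. For Tg they were 14.6% ± 1.43 and 13% ± 7.34, and for Slc17a6 9.47% ± 1.51 and 7.69% ± 5.02. The highest bin held 408 cells, with as few as 25 in a library.

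**Figure D3:**
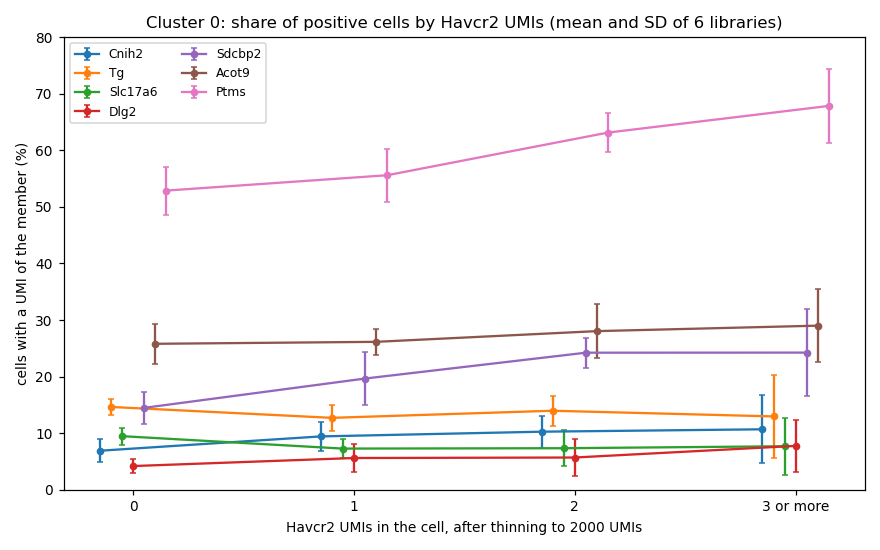
Percentage of cluster 0 cells with a UMI of each member (y axis) by the number of Havcr2 UMIs in the same cell (x axis), after thinning to 2000 UMIs; points are means and bars SDs of 6 libraries, shifted sideways for legibility. Ptms goes from 52.9% to 67.9% and Sdcbp2 from 14.5% to 24.2%. The bars of the lowest and highest bins overlap for Sdcbp2 but not for Ptms. The bars of the other members overlap across the bins.

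The genes whose pattern over the 11 cluster means was most like a member's were found by Pearson's r of log2(CPM + 1) among 8621 genes. Such an r has 11 points, all from the same libraries, and is given as likeness of pattern alone. Cnih2 and Tg were alike: Tg was the nearest gene to Cnih2 and Cnih2 the second nearest to Tg, at r = 0.95. The other genes nearest to Cnih2 were Ap3b1, Tank, Tnip3 and Phactr2, and those nearest to Tg were Tank, Inpp5b, Agfg1 and Fbxw11. Slc17a6 was nearest to Tnfrsf4, Sv2c, Twsg1, Gpm6b and Tnfrsf9, with r from 0.96 to 0.97. Tnfrsf4 and Tnfrsf9 encode the costimulatory receptors OX40 and 4-1BB, and Sv2c encodes a synaptic vesicle glycoprotein. Dlg2 was nearest to Ank3, 2700097O09Rik, Setbp1, Farp1 and Lpgat1, with r from 0.97 to 0.98, and Lag3 was the 6th nearest. Sdcbp2 was nearest to Mxi1 (0.98), Plekhb2, 2310031A07Rik, Kremen2 and Samsn1. Acot9 was nearest to Samsn1, Sdcbp2, Fkbp1a, 2310031A07Rik and Ptms, and genes near Ptms included Samsn1, 1700017B05Rik, Prpf18 and Inpp5b.

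Overlapping and neighbouring genes were measured because the sources used here do not say whether counting used the strand. Sla, which encodes an adaptor that dampens T cell receptor signalling, lies within Tg on the opposite strand. Sla was highest in cluster 4, at 351 ± 40.4 CPM, against 232 ± 33.1 CPM in cluster 0 (SD, n = 6). For every 100 UMIs of Sla there were 32.9 ± 6.42 UMIs of Tg in cluster 0, 29.1 ± 8.69 in cluster 3, 28.8 ± 8.17 in cluster 5 and 12.4 ± 2.69 in cluster 4. The first 3 differed by less than the spread between libraries, but over all clusters the counts of Tg did not keep a fixed ratio to those of Sla. Without strand, reads of Tg and Sla cannot be told apart where they overlap. Yif1a overlaps the end of Cnih2 by 14 bases on the opposite strand, and there were 213 ± 58.5 UMIs of Cnih2 for every 100 of Yif1a in cluster 0 against 68.6 ± 17.0 in cluster 5 and 180 ± 166 in cluster 10, where Cnih2 had 27 UMIs. Lag3 is the neighbour of Ptms on the same strand, and Ptms stood at 61.1 ± 7.99 UMIs for every 100 of Lag3 in cluster 0 and at 6.96 ± 2.28 in cluster 6, where Lag3 was highest. A230083G16Rik, an antisense gene that overlaps Ptms, had 6 UMIs in all cells, and of 30 gene models that overlap Dlg2 the table held 0.

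Close relatives of the members are described here by the same ratio of cluster 0 to the other clusters. The members were chosen by their cluster 0 levels, so nothing is read from smaller ratios in their relatives. Cnih1 and Cnih4 had ratios of cluster 0 to the other clusters of 1.23 and 1.00, while Cnih3 had 23 UMIs in all cells. Dlg1 had a ratio of 1.05. Sdcbp and Acot8, also highest in cluster 0, had ratios of 1.34 and 1.32, and Acot7, highest in cluster 8, had one of 1.40. Among the other glutamate transporters of the family, Slc17a7 had 47 UMIs in all cells and Slc17a8 had 7. Acot10, the near-identical retrogene of Acot9, had 49 UMIs in all cells, against 25404 for Acot9. Ptma, which encodes prothymosin alpha, had a ratio of 0.737 and was highest in cluster 3.

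The listed neuronal and thyroid markers were close to 0 as groups. Of 15 neuronal markers, 9 were in the table, and their summed level was 2.57 CPM in cluster 0, with none at 5 CPM or more. Sv2c, the synaptic vesicle gene near Slc17a6 in pattern, is outside these lists and stood at 89.6 CPM in cluster 0. Of 6 glia markers, 2 were in the table, at 45.9 CPM together in cluster 0, and they were highest in cluster 1, at 83.6 CPM. Of 8 thyroid markers, 2 were in the table, at 0.145 CPM together in cluster 0. Of 14 genes of thyroid function, 5 were in the table, at 5.65 CPM together in cluster 0, of which Hhex, a transcription factor also used in blood cells, made up 5.51 CPM. Hhex was highest in cluster 2, at 26.9 CPM. Of 27 genes of glutamate receptors and synapse scaffolds, 13 were in the table, and Dlgap4 (35.1 CPM) and Homer1 (7.54 CPM) alone reached 5 CPM in cluster 0. Neither stood out there, with ratios of cluster 0 to the other clusters of 1.15 and 1.04. The exhaustion list, by contrast, had 20 of 21 markers in the table and a summed level of 9152 CPM in cluster 0, against 823 CPM in cluster 7. It was highest in cluster 4, at 25888 CPM, of which the chemokine genes Ccl4 and Ccl3 made up 15989 and 4508 CPM. Havcr2, Pdcd1, Lag3, Ctla4 and Tnfrsf9 were each highest in cluster 6. Entpd1, Cd38, Cxcr6 and Cd160 were highest there too. The other genes of the list in the table were highest in clusters 0, 4, 8 or 10. Markers of cells that a CD8 sort should lack stood at 172 CPM in cluster 0 for the 9 myeloid genes and at 5.32 CPM for the 5 tumour epithelial genes in the table.

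The rule that chose the members did not use sex. It used likeness to Havcr2, which was itself lower in every male than in every female library of clusters 1, 4, 6, 9 and 10. Sex differences of the members in such clusters are therefore not independent of the choice. Counts were summed per library and compared with edgeR's quasi-likelihood test over all genes, with Benjamini-Hochberg adjustment in every comparison by itself; calls are genes whose adjusted p was under 0.05. Differences on the log2 scale are male minus female. In all, 12 such comparisons were run, over all CD8 T cells outside cluster 2 and in each of the 11 clusters. P-values were not adjusted across the 12. Over all CD8 T cells, in cluster 0 and in cluster 8, none of the 7 members was called, and the shares of all tested genes called were 0.0902%, 0.139% and 0.0968%. In these 3 comparisons no member had an unadjusted p under 0.05 by edgeR, and neither DESeq2 nor limma-voom called any. Among all genes tested, 1020 of 12194, 466 of 10107 and 312 of 9297 were under it by edgeR. Dlg2 in cluster 0 was the 1 member under 0.05 without adjustment by DESeq2 and by limma-voom (adjusted p = 1.00 and 0.886). It was also under 0.05 by edgeR without the cells of shared barcodes (adjusted p = 0.999). Of all genes in cluster 0, 303 of 14318 were under 0.05 without adjustment by DESeq2 and 543 of 10107 by limma-voom. By edgeR without shared barcodes, 473 of 10100 were.

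In cluster 0 the libraries of the sexes overlapped for 6 of the 7 members. Ptms averaged 449 ± 17.9 CPM over the female and 426 ± 64.4 CPM over the male libraries (SD, n = 3 each), and its log2 fold change was -0.09 ± 0.13 (SE). Fold changes of the other members but Dlg2 ran from -0.09 for Cnih2 to 0.18 for Slc17a6. Dlg2 averaged 21.1 ± 7.42 CPM over the female and 30.8 ± 0.983 CPM over the male libraries, with a log2 fold change of 0.46 ± 0.21 (SE), unadjusted p = 0.0536 and adjusted p = 1.00 by edgeR. It was the 1 member whose sexes did not overlap there, a pattern with males above that 5.38% of all tested genes showed. Without female library 5, whose Dlg2 level was near the males', the log2 fold change was 0.84 ± 0.14 (SE) with an adjusted p of 0.0427 by edgeR.

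The share of thinned cluster 0 cells with a Dlg2 UMI was 6.51% ± 1.37 in males and 3.63% ± 0.821 in females. The exact two-sided permutation test over the 6 libraries gave p = 0.10, the smallest that 20 assignments allow. This separation of the sexes was not seen at other depths. Thinned to 1000 UMIs, the shares were 2.65% ± 0.331 in males and 2.40% ± 0.735 in females (exact two-sided p = 0.70), and without thinning 22.8% ± 3.22 and 17.1% ± 4.75 (exact two-sided p = 0.30), with overlap of the sexes both times. For the other members the exact two-sided p ran from 0.30 to 1.00, and the differences of mean shares ran from -2.92 to 1.62 percentage points.

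Outside clusters 0 and 8, members were called in clusters 1, 2 and 9, all lower in males. These clusters were followed up because of those calls. In cluster 1, Ptms stood at 82.4, 73.2 and 96.8 CPM in male libraries 1, 3 and 4, and at 189, 213 and 148 CPM in female libraries 2, 5 and 6. Every female library was above every male library, which held for 12.9% of all tested genes in this cluster. The log2 fold change was -1.10 ± 0.13 (SE), with an adjusted p of 0.000177 by edgeR, and without female library 5 it was -0.98 with an adjusted p of 0.00108. Tg stood at 4.39, 4.56 and 10.9 CPM in the males and 16.7, 22.6 and 16.5 CPM in the females of cluster 1, in the same order of libraries. Again the sexes did not overlap. Its log2 fold change was -1.42 ± 0.29 (SE), with an adjusted p of 0.0151 by edgeR, and without female library 5 the adjusted p was 0.135. Of the 5 members tested in cluster 1, these 2 were called and all 5 fold changes were negative. Slc17a6 and Dlg2 were below edgeR's filter there. Among all genes tested in cluster 1, 3.8% were called and 2.2% were called lower in males. Havcr2 averaged 158 ± 61.7 CPM over the female and 54.4 ± 14.8 CPM over the male libraries there. Its sexes did not overlap, and it was not called by edgeR.

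In cluster 9, Ptms stood at 78.8, 146 and 124 CPM in male libraries 1, 3 and 4, and at 232, 239 and 177 CPM in female libraries 2, 5 and 6. Every female library was above every male library, as for 13.5% of tested genes there. The log2 fold change was -0.85 ± 0.20 (SE), with an adjusted p of 0.0374 by edgeR. The call was lost without female library 5 (adjusted p = 0.176), without female library 2 (0.109), without male library 4 (0.0560) and without cells over 10% mitochondrial (0.0747). Ptms was the 1 member called of 6 tested in cluster 9, where 3.41% of genes were called and 2.29% were called lower in males. Havcr2 was called there too, at -1.25 ± 0.20 (SE) with an adjusted p of 0.00261. In cluster 2, Ptms was the 1 member called of 4 tested, where 0.358% of genes were called and 0.28% were called lower in males. It averaged 32.5 ± 2.25 CPM over the male and 59.9 ± 17.7 CPM over the female libraries, with a log2 fold change of -0.77 ± 0.15 (SE) and an adjusted p of 0.0121 by edgeR, and without female library 5 the adjusted p was 0.325. In clusters 3, 4, 5, 6, 7 and 10, no member was called by edgeR, and the shares of all genes called were 0.142%, 0.105%, 0.0979%, 0.181%, 0.168% and 0.274% in that order. At an unadjusted p under 0.05 by edgeR there were 2 members in cluster 7, Ptms (-1.01, adjusted p = 0.0724) and Sdcbp2 (-0.94, adjusted p = 0.666). In cluster 5 there was 1, Dlg2 (0.67, adjusted p = 0.998), and there was none in clusters 3, 4, 6 and 10. Among all genes tested, 573 of 8324 in cluster 7 and 407 of 10212 in cluster 5 were under it. No other tool was run in clusters 3, 4, 5, 6, 7 and 10.

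**Figure D4:**
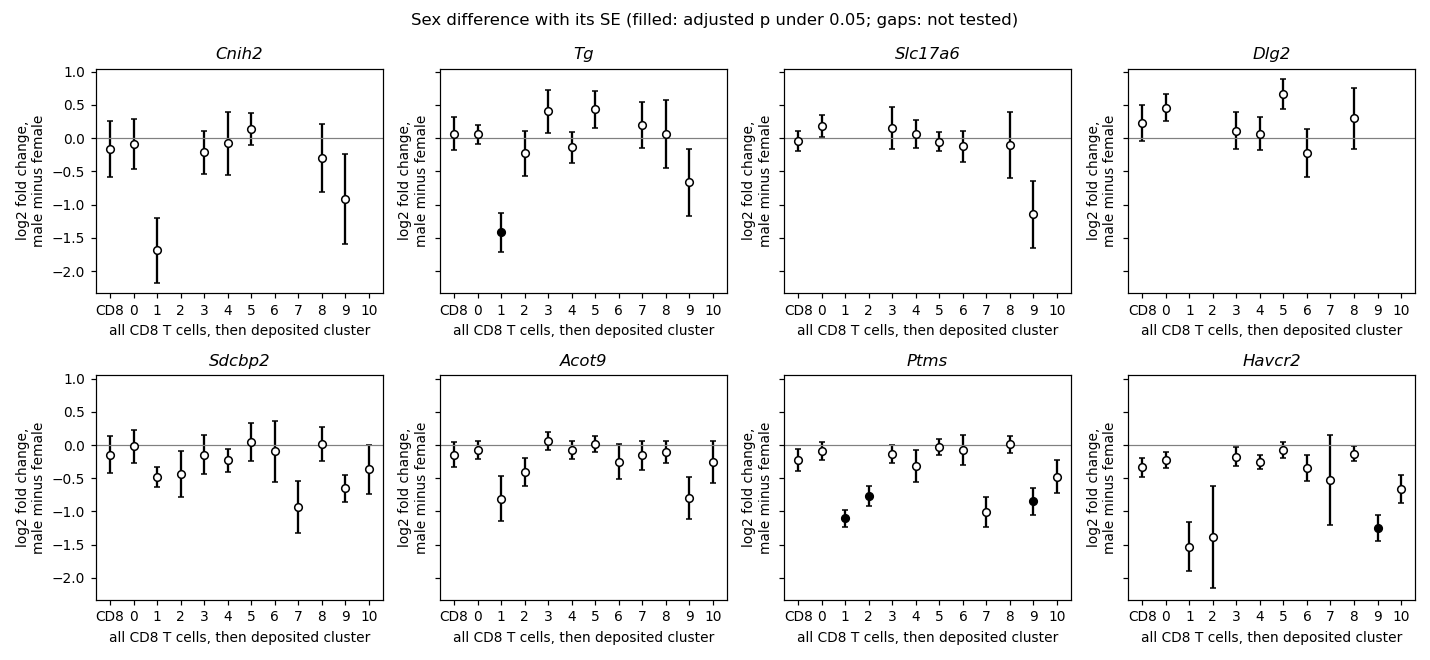
Log2 fold change, male minus female (y axis), of each member and of Havcr2 over all CD8 T cells outside cluster 2 and in each deposited cluster (x axis); bars are SEs from edgeR, filled points have an adjusted p under 0.05 and gaps are genes below the filter on low counts. Filled points are Tg in cluster 1, Ptms in clusters 1, 2 and 9 and Havcr2 in cluster 9, all below 0, and none lies in clusters 0 and 8.

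Exhaustion and effector markers also differed by sex in clusters 1, 2 and 9, though not in these clusters alone. Of the 2307533 UMIs of the exhaustion list over all cells, Ccl4 alone gave 787992, so sums of this list lean on that gene. The summed level of the exhaustion list in cluster 1 averaged 4343 CPM in females (range 3239 to 5222) and 2456 CPM in males (range 2190 to 2798). In cluster 9 it averaged 6642 CPM in females (range 4894 to 8900) and 2686 CPM in males (range 1911 to 3299), and in cluster 2 it averaged 1582 CPM in females (range 1122 to 2140) and 954 CPM in males (range 890 to 1057). The effector list was also higher in every female library than in every male library of these clusters, with means of 5255 against 3166 CPM in cluster 1, 6651 against 3091 CPM in cluster 9 and 2167 against 897 CPM in cluster 2. The same held in cluster 0, with 5201 against 3277 CPM, and in cluster 10, with 2935 against 1937 CPM. No member was called in clusters 6, 7 and 10, yet there too every female library was above every male library for the exhaustion list. The lowest female and the highest male library stood at 13710 and 13235 CPM, 812 and 773 CPM, and 4338 and 4265 CPM in that order. In cluster 1, 7 of the 20 exhaustion list genes tested were called lower in males and none higher. Their median log2 fold change was -0.68 against -0.000127 over all genes. In cluster 9, 7 of 19 were called lower and none higher, with a median of -1.01 against 0.01. In cluster 0 none of 20 was called by edgeR, with a median of -0.23 against -0.00279. Naive and central memory markers stood the other way, with means in cluster 1 of 1216 CPM for female and 1609 CPM for male libraries. The part of such differences in cell state in the values of Tg and Ptms was not tested.

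Whether a sex difference was itself different from that in cluster 0 was tested for clusters 1, 2, 9 and 8, in an edgeR model with the library as a block and the interaction of cluster and sex. Shares of genes called are over all genes of each such model, including genes that passed the filter through cluster 0 alone. Members are counted by the filter in clusters 1, 2 and 9 themselves, so counts and shares rest on unlike filters. Against cluster 0, the difference in cluster 9 was more negative for Ptms by 0.78 ± 0.12 on the log2 scale (SE, adjusted p = 8.72e-06), and the call held without any single library. Slc17a6 (-1.31 ± 0.32, adjusted p = 0.00870), Acot9 (-0.72 ± 0.16, adjusted p = 0.00503) and Sdcbp2 (-0.63 ± 0.18, adjusted p = 0.0322) were also called, which made 4 of the 6 members that passed the filter in cluster 9 itself. In the model against cluster 0, which held 7 members and 9350 genes in all, 2.9% of genes were called and 2.29% were called with a lower value. Those 3 calls were lost in at least 1 leave-one-out fit. Without female library 5 the adjusted p was 0.344 for Slc17a6, 0.0347 for Acot9 and 0.0384 for Sdcbp2. Without male library 1 it was 0.0957, 0.110 and 0.223 in the same order. For Sdcbp2 it was also 0.210 without male library 3 and 0.198 without female library 6.

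Of the 5 members that passed the filter in cluster 1 itself, Cnih2 was called against cluster 0 (-1.49 ± 0.33, adjusted p = 0.0169 by edgeR), where 1.55% of genes were called and 1.13% were called with a lower value. Cnih2 is low in cluster 1, with 99 UMIs over all libraries. Without female library 5 its difference was -0.78 with an adjusted p of 0.635, and without male library 3 the adjusted p was 0.0992. For Ptms and Tg, the members called in cluster 1 itself, the difference from cluster 0 did not pass, at adjusted p = 0.138 and 0.0774 by edgeR. Of the 4 members that passed the filter in cluster 2, none was called against cluster 0 by edgeR, where 0.234% of genes were called. Ptms was the 1 of these members with an unadjusted p under 0.05, as were 608 of all 10245 genes tested. Dlg2 was below the filter in clusters 1 and 2, with 64 and 16 UMIs there, and entered these models through cluster 0 alone, so nothing is read from its values against cluster 0. For cluster 8 no member was called by edgeR against cluster 0, where 0.0198% of genes were called, and no member had an unadjusted p under 0.05.

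**Figure D5:**
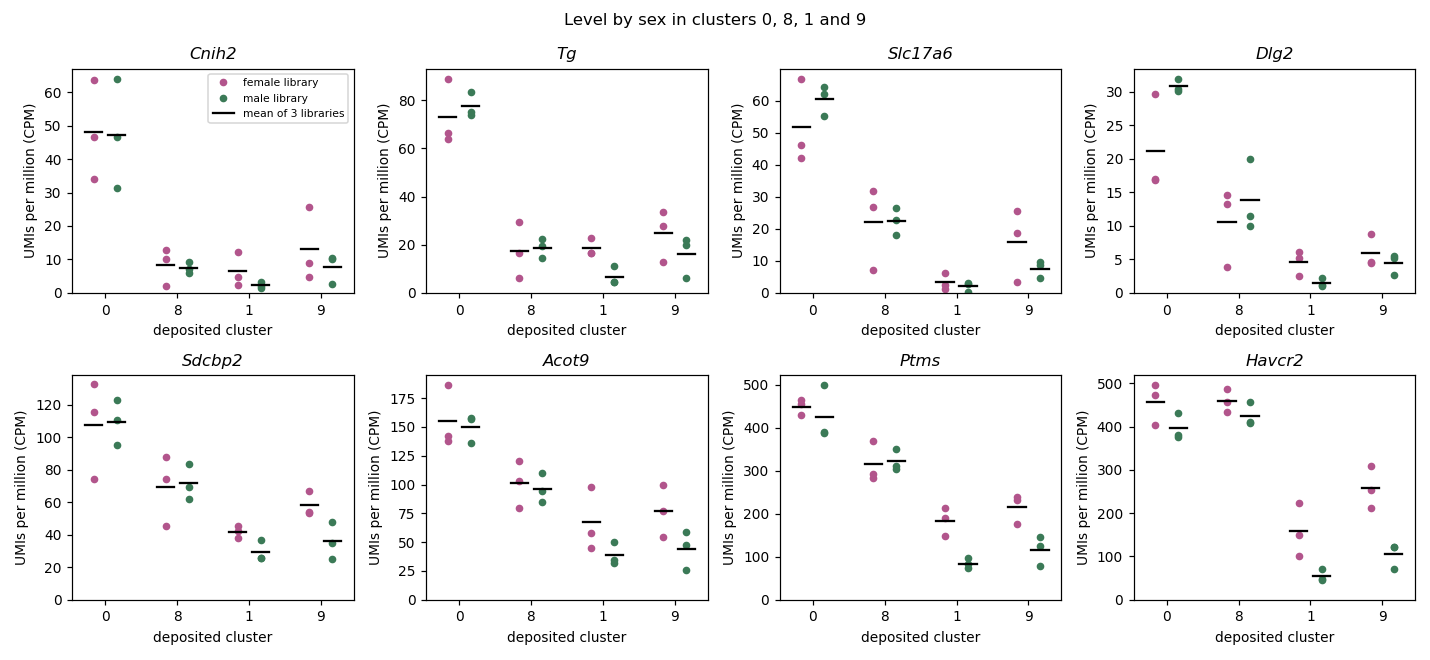
Level in CPM (y axis, from 0) of each member and of Havcr2 in clusters 0, 8, 1 and 9 (x axis); points are libraries by sex of the host and bars are means of 3 libraries. In clusters 1 and 9 the female libraries of Ptms lie above all male libraries, while in clusters 0 and 8 the sexes overlap.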

How the data were processed

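The authors deposited raw UMI counts per gene and cell with each cell's sex, library, UMI total and cluster number; genome build mm10, Cell Ranger and Seurat are named in the submitters' processing notes, without versions. Of 6 libraries, only the sex is known, and the files do not tie them to numbered replicates. The cell totals given in the deposited metadata equalled the column sums for all 26698 cells.

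From the deposited counts, UMIs were summed per library and per library and cluster (at least 20 cells per sum), and levels are CPM of these sums. Shares were computed after thinning each cell to 2000 UMIs (seed 7). No doublet caller was run, and whether doublets had been removed is not given in the sources used here. Sexes were compared with edgeR 4.0.16 (TMM, filterByExpr, robust quasi-likelihood test, R 4.3.3) on sums, with Benjamini-Hochberg adjustment over all genes tested. Cluster 2 was left out of the sum over all CD8 T cells. DESeq2 1.42.0, limma-voom (limma 3.58.1), RLE factors, no filter, other cell filters and leaving out each library were alternatives. The code was tested on simulated data. Follow-up of clusters 1, 2 and 9 and the tests against cluster 0 were added after seeing the data.

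The members and gene lists were chosen with earlier results of these data known. Named genes are the members, Havcr2, the 5 genes most like each member, the highest genes of the lists, and those neighbours and paralogs that a statement needed; 1 gene among those most like a member is not reported here. Rgs16, Cx3cr1, Sat1, Nkg7, Pdcd1, Ctla4, Entpd1, Cd38, Cxcr6 and Cd160 were named after their values were seen. P-values measure the spread between libraries. Intervals and floors cover counting error only. Python 3.11.15, numpy 2.4.6, scipy 1.17.1, pandas 2.3.3 and matplotlib 3.10.9 were used.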

Additional observations from a re-analysis of the deposited data

Results flagged for a closer look

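Among 77 sets of 6 libraries, 1 for each member and cluster, 7 had a library far from the others, where chance gives about 1 in 20. Female library 5 was that library for Cnih2 in cluster 1 (12.2 CPM, next 4.72) and in cluster 9 (25.6, next 10.4). It was also that library for Acot9 in cluster 2 (44.3 CPM, next 22.8), Sdcbp2 in cluster 7 (17.4, next 6.82), Slc17a6 in cluster 2 (5.00, next 1.49, from 7 UMIs) and Slc17a6 in cluster 7 (4.65, next 1.08, from 4 UMIs). Female library 2 stood apart for Sdcbp2 in cluster 10, at 100.05 CPM against a next value of 45.9, from 20 UMIs.

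The sex difference, male minus female on the log2 scale, was called different from that in cluster 0 by edgeR's interaction test in 8 cases. In cluster 9 it was lower by -0.78 for Ptms, -0.72 for Acot9, -0.63 for Sdcbp2, -1.31 for Slc17a6 and -1.04 for Havcr2. In cluster 1 it was lower by -1.49 for Cnih2 and -2.01 for Dlg2, and in cluster 2 by -3.29 for Dlg2. Dlg2 was below the filter on low counts in clusters 1 and 2 and entered through cluster 0, where it is high, so nothing is read from its values. Of these, the calls for Ptms and Havcr2 held without any single library.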

How the results depend on the processing

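No paired analysis was possible because the files do not tie libraries to the replicate numbers in the labels. Over all CD8 T cells, 11 genes were called in the main comparison and 120 by DESeq2. Without the filter on low counts, calls rose from 9 to 18 in cluster 8, from 351 to 672 in cluster 1, from 32 to 66 in cluster 2 and from 274 to 506 in cluster 9. Leaving out each library in turn gave 9 to 16 calls over all CD8 T cells, 9 to 26 in cluster 0, 8 to 12 in cluster 8, 64 to 710 in cluster 1, 12 to 47 in cluster 2 and 70 to 382 in cluster 9. For the difference from cluster 0 it gave 30 to 295 calls in cluster 1, 9 to 29 in cluster 2, 0 to 2 in cluster 8 and 130 to 404 in cluster 9. The cause was not tested. No result below was called, and each changed sign. Tg over all CD8 T cells was -0.00098 with cluster 2 kept, and limma-voom gave 0.02 for Sdcbp2 in cluster 0 and 0.022 for Slc17a6 in cluster 8. The sex difference in share was -1.05 percentage points for Cnih2 and -3.91 for Sdcbp2 without thinning, -0.042 for Tg without cells over 10% mitochondrial and -0.47 for Slc17a6 thinned to 1000 UMIs. Other sign changes came from leaving out a library, as log2 fold changes unless stated. In cluster 0 the ranges were Acot9 -0.18 to 0.092, Cnih2 -0.39 to 0.19, Ptms -0.26 to 0.0052, Sdcbp2 -0.23 to 0.16, Tg -0.041 to 0.27. In cluster 2 the ranges were Tg -0.46 to 0.11. In cluster 8 the ranges were Acot9 -0.26 to 0.051, Cnih2 -0.66 to 0.22, Dlg2 -0.094 to 0.52, Ptms -0.085 to 0.16, Sdcbp2 -0.20 to 0.22, Slc17a6 -0.44 to 0.31, Tg -0.25 to 0.54. In cluster 9 the ranges were Cnih2 -1.27 to 0.20. Over CD8 T cells the ranges were Acot9 -0.31 to 0.028, Cnih2 -0.45 to 0.17, Sdcbp2 -0.39 to 0.025, Slc17a6 -0.19 to 0.083, Tg -0.14 to 0.36. For the sex effect in cluster 2 minus cluster 0 the ranges were Cnih2 -0.50 to 0.016, Slc17a6 -2.52 to 0.24, Tg -0.55 to 0.12. Cnih2 and Slc17a6 were below the filter in cluster 2, with 34 and 24 UMIs there. They entered this model through cluster 0 alone, so nothing is read from their values. For the sex effect in cluster 8 minus cluster 0 the ranges were Acot9 -0.11 to 0.029, Cnih2 -0.45 to 0.11, Dlg2 -0.56 to 0.19, Sdcbp2 -0.092 to 0.18, Tg -0.24 to 0.21. For the sex effect in cluster 9 minus cluster 0 the ranges were Cnih2 -1.08 to 0.0056. For the share of cluster 0 cells, in percentage points, the ranges were Cnih2 -0.40 to 2.38, Ptms -4.17 to 1.19, Sdcbp2 -1.93 to 2.55, Tg -0.56 to 0.68. Members with few UMIs in a cluster limit what these sums can show.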
